A study of Mus musculus with 28 samples.

Results

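The cells described here were chosen from single-cell RNA-seq of 16-week-old mice by the share of their transcripts that came from 8 genes, Prg4, Igfbp6, Clec3b, Mfap5, Cilp, Myoc, Dpt and Tppp3. A cell with at least 200 detected genes was a member where the unique molecular identifiers (UMIs, each marking an original RNA molecule) of these genes summed to 0.5% or more of the cell's UMIs. The rule found 67 of 4430 cells, 47 of 2068 in the control library and 20 of 2362 in the conditional knockout (CKO) library. Because measured values picked the members, the levels of the 8 genes and every contrast with the remaining cells are given as a description, with no test.

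The study asked how loss of Zmpste24 (Z24), the metalloprotease that cuts prelamin A into mature lamin A, alters skeletal stem and progenitor cells. Control mice were PrxCre; Z24fl/+ and CKO mice PrxCre; Z24fl/fl in the labels, where PrxCre stands for Prx1-Cre, all on a C57BL/6 background, with Cre-driven td-Tomato from the Rosa26 Ai9 reporter in both genotypes. Prx1-Cre is active in the mesenchyme of the developing limb, so the deletion covers the whole limb skeletal lineage and not only the cells described here. Cells that were td-Tomato+ and CD45-Ter119-CD31- were sorted from marrow and crushed bone of several mice pooled per library, with 1 library for each genotype. The study's methods attach the cell numbers of the libraries to the opposite genotypes, and the sample labels were followed here. Zmpste24 ran the way the labels say, at 19.4 CPM (summed UMIs scaled to 1000000 UMIs) in the library labelled control and 3.14 CPM in that labelled CKO, while an exchange of the labels would turn round the shares of members and every single-cell genotype direction below. With 1 library each, no genotype difference in single cells has a replicate, and the intervals below, all 95%, cover counting error only. A further library of 8-week-old Prx1-Cre mice (10.3% members, 102 of 993 cells) and an Osx-Cre library of the same age (1 of 782 cells) were scored by the same rule. Their genotype labels read Z24fl/fl, whereas the paper describes these mice without a floxed Z24 allele. Zmpste24 was at 17.4 CPM in the 8-week Prx1-Cre library and 43.3 CPM in the Osx-Cre library. Which genotype these mice had is therefore uncertain.

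Periosteum is the sheath on the outer bone surface, with an outer fibrous layer and an inner layer that holds progenitors for bone and for the cartilage of a fracture callus. Its fibroblast-like cells secrete collagens, small leucine-rich proteoglycans such as decorin, and glycoproteins of elastic fibres. Similar matrix programmes are used by fibroblasts of tendon, ligament, fascia and joint capsule, so that a few genes seldom separate these tissues.

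Members were a small fraction of both 16-week libraries. They made up 2.27% of control cells (interval 1.68 to 3.01) and 0.847% of CKO cells (0.518 to 1.31), by the exact binomial method. The libraries differed in depth. The shallowest control cell held 501 UMIs and the shallowest CKO cell 367, and members had a median of 2405 UMIs in control and 1588.5 in CKO, against 1420 and 1267 in the other cells. When every cell was thinned to 500 UMIs, which left out 206 CKO cells and no control cell, 47 of 2068 control cells (2.27%) and 18 of 2156 CKO cells (0.835%) met the rule, where 19 of those CKO cells did before thinning. Of the cell barcodes, 10 occurred in both libraries and none of these was a member.

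The threshold fell in a sparse stretch of the distribution. The lowest members stood at 0.51% in control and 0.657% in CKO, the highest other cells at 0.482% and 0.289%, and 93.5% of other control cells and 95.4% of other CKO cells held no UMI of the 8 genes. At least 3 of the 8 genes were detected in 41 of 47 control members and in 17 of 20 CKO members.

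**Figure D1:**
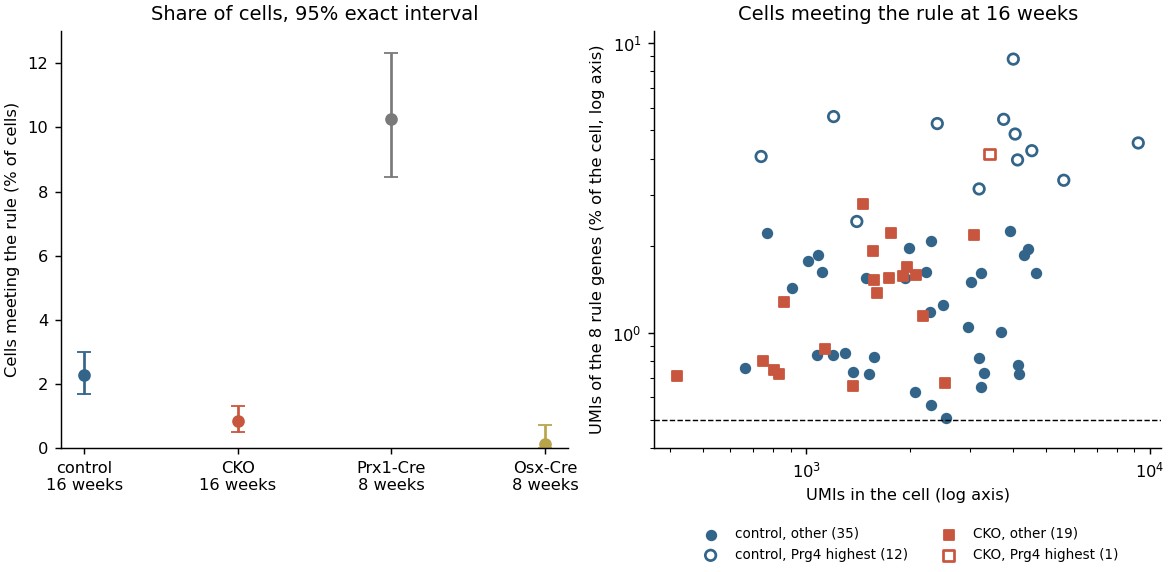
Left, cells meeting the rule as a percent of all cells in each library, with exact 95% binomial intervals; right, each 16-week member by its UMIs and by the percent of them from the 8 rule genes (both axes logarithmic, dashed line at 0.5%), with open symbols for members in which Prg4 had the most UMIs of the 8. Control stands at 2.27% and CKO at 0.847%, and the open symbols are 12 control cells and 1 CKO cell.

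Prg4 encodes lubricin, the boundary lubricant of joint and tendon surfaces, and was the most abundant rule gene in control members. Summed over members it reached 16023 CPM in control, 3933 in CKO and 16073 at 8 weeks, yet only 24 of 47 control and 9 of 20 CKO members held any of it. A single CKO cell supplied 88.5% of the CKO Prg4 UMIs. Igfbp6, a secreted protein that binds insulin-like growth factor II, was held by 45 of 47 control members, more than any other rule gene, and by 15 of 20 CKO members, as were Clec3b and Mfap5. It stood at 3054 and 3933 CPM. Clec3b (tetranectin, a plasminogen-binding secreted protein) stood at 1754 CPM in control and 2934 in CKO, and Mfap5, a microfibril component, at 1049 and 1785 CPM.

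Cilp and Myoc were the rule genes that differed most toward CKO. Cilp, a matrix protein of cartilage and tendon that restrains growth factor signalling, was at 204 CPM in 7 control members and 1634 CPM in 11 CKO members, with 50% of the CKO UMIs in 1 cell. Myoc (myocilin, a secreted glycoprotein) was at 345 CPM in 11 control members and 1997 CPM in 13 CKO members. Dpt, a dermatan sulphate-binding protein that joins collagen fibrils, was at 587 and 484 CPM, and Tppp3, a tubulin-binding protein found in tendon sheath progenitors, at 1511 and 877 CPM. In all other cells the 8 genes stayed between 0 and 26.1 CPM in both libraries, with no Myoc UMI outside the members in control.

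**Figure D2:**
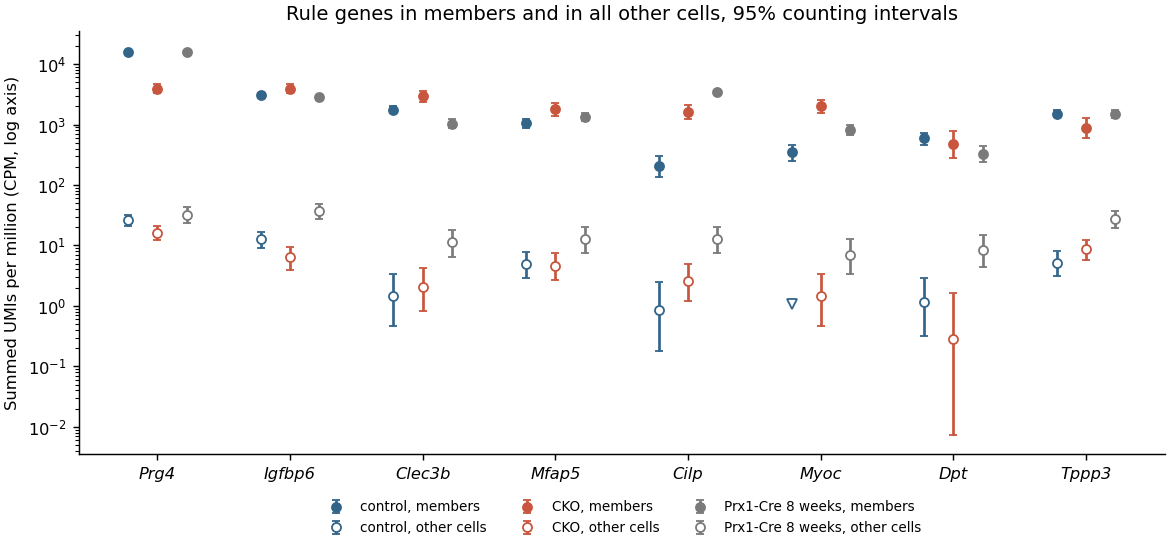
Summed UMIs scaled to CPM ( logarithmic axis) of the 8 rule genes in members (filled) and in all other cells (open) of the control, CKO and 8-week Prx1-Cre libraries, with 95% counting intervals; the open triangle is the upper limit of a count of 0. Members lie above other cells for each gene by construction, and Prg4, Cilp and Myoc are the genes whose control and CKO members lie farthest apart.

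Beyond the 8 genes, the members carried a broad fibroblast programme. Of 3054 genes detected in at least 10% of members, 132 (4.32%) had at least 4 times the level of the other cells in both libraries, computed after adding 10 CPM to each side, and 124 of these were outside the rule. The 8-week library took no part in that choice, and there 79 of the 124 (63.7%) again passed 4-fold, beside 4.09% of all genes tested. For the 20 leading genes the 8-week ratio had a median of 12.01 against 1.05 over all genes, and 19 of 20 passed 4-fold; fibronectin, Fn1, was the exception at 3.37.

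The leading genes fell into 3 groups by role. Surface proteins came first. Ly6a (Sca1) stood at 2060 CPM in control members and 1634 in CKO members against 20.1 and 10.4 in the other cells, and Ly6c1 at 1237 and 1301 against 8.33 and 6.34. Cd34, a sialomucin of fibroblast and vascular progenitors, reached 493 and 666 CPM against 1.15 and 1.44, and Ackr3, the scavenger receptor for Cxcl12, 180 and 242 CPM against 3.16 and 0.

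Matrix genes were the largest group. Dcn (decorin, which binds collagen fibrils) was detected in every member, at 18780 CPM in control and 23173 in CKO against 982 and 620. Tnxb (tenascin-X) stood at 439 and 333 CPM against 0.574 and 0.865, Aspn (asporin, a periosteum and ligament proteoglycan) at 901 and 1543 against 20.4 and 31.4, and Col3a1 at 2114 and 1724 against 113 and 122. Fbln2, Fn1, Ltbp4, Sparcl1 and the secreted factors Nbl1, Nov and Ntn1 belonged to the same 20.

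The third group was cytoskeletal and calcium-binding. Gsn (gelsolin, which severs actin filaments) was also detected in every member, at 17409 CPM in control and 30524 in CKO against 299.3 and 179 CPM. Capg, S100a4, S100a6 and Crip1 completed the list.

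**Figure D3:**
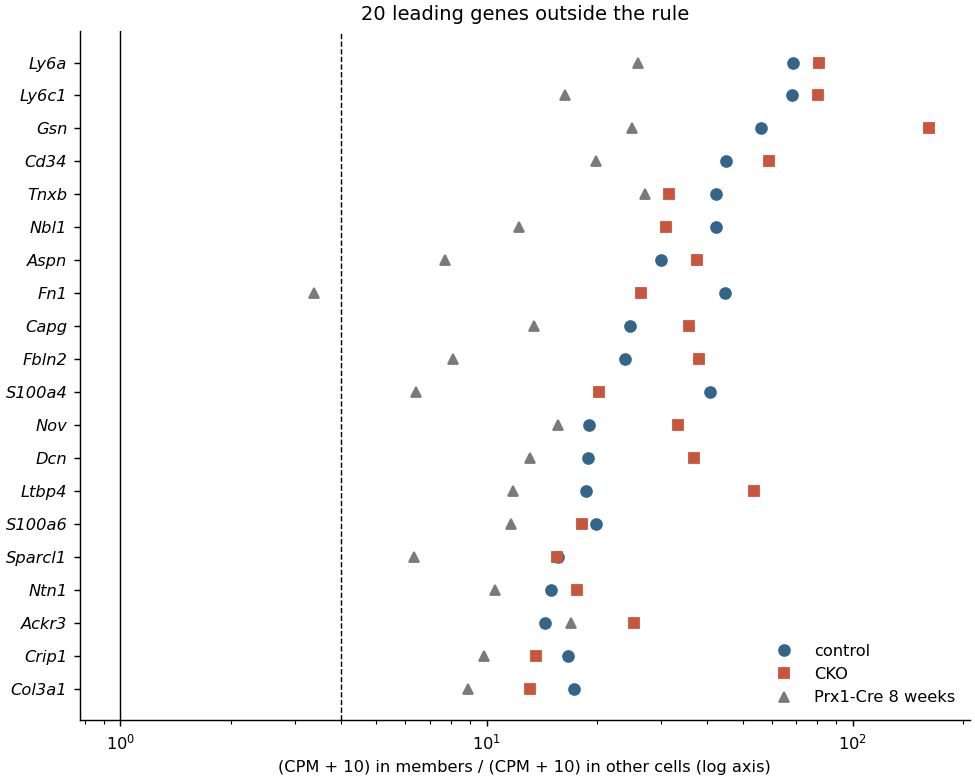
Ratio of members to all other cells (each CPM plus 10, logarithmic axis) for the 20 leading genes outside the rule, in control, CKO and the 8-week Prx1-Cre library; the dashed line marks 4-fold. All 20 genes lie above 4 in the 16-week libraries, which chose them, and 19 of 20 at 8 weeks, with Fn1 at 3.37.

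Genes of the marrow stromal and osteoblast lineages were low in members. At most 1 part in 4 of the level of other cells was found in both libraries for 123 of 2096 genes tested in that direction (5.87%). The lowest included Adipoq (adiponectin, 62.7 CPM in control and 0 in CKO members against 1839 and 1898), Vcam1 (54.8 and 30.3 against 1489 and 1513), Trf (transferrin, 54.8 and 0 against 1975 and 1626), Hp (haptoglobin) and the bone matrix gene Ibsp (188 and 151 against 8130 and 7657). Cxcl12, the chemokine that marks marrow stromal cells, was at 948 and 726 CPM in members against 20776 and 22931 CPM in the other cells.

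The label periosteal was checked against marker lists. The 12 fibroblast progenitor markers outside the rule summed to 42799 CPM in control members and 60624 in CKO members against 2093 and 1565 in other cells. The 10 periosteum markers summed to 2796 and 2934 CPM against 615 and 650, with Aspn the most abundant (32.2% and 52.6% of the list), and Postn (periostin), the best known of them, had no UMI in control members and 12 UMIs in 1 CKO member. The 7 marrow stromal markers were at 1480 and 1059 CPM against 36568 and 39689, and the 7 osteoblast markers at 1746 and 3600 against 29266 and 21993. Dcn and Gsn made up 84.6% and 88.6% of the fibroblast progenitor UMIs of control and CKO members and were in every member, while Ly6a was detected in 38 of 47 and 12 of 20 and Cd34 in 24 and 11. Other markers of the list were less general. Outside the members led by Prg4, described below, Pdgfra was at 168 CPM in control and 337 in CKO, against 143 and 128 in other cells. Thy1 was detected in 8 of these 35 control and 1 of these 19 CKO members, and Pi16 in 7 and 4. By these lists, chiefly Dcn and Gsn, the members were fibroblast progenitor-like cells, apart from those led by Prg4, which were lower in this list. The periosteum markers did not single out periosteum from other fibrous tissue. The chosen cells are called members below.

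Markers of other cell types were checked in the same way. The 5 synovial lining markers summed to 1363 CPM in control members and 182 in CKO members against 9.77 and 13.3 in other cells, with the protease Htra4 at 67.8% of the control sum. The 7 tenocyte markers stood at 486 and 1452 CPM against 82.7 and 66.0 in other cells, led by Fmod in control and Thbs4 in CKO. Of 8 chondrocyte markers, 2 were detected in control members (862 CPM, 94.6% of it Comp) and 5 in CKO members (1392 CPM), against 3087 and 1075 CPM in other cells. Of the 46 CKO UMIs, 36 lay in 1 Prg4-led cell. Without the Prg4-led members the list was at 1247 CPM in control and 337 in CKO, where only Comp was detected. Myeloid and muscle markers were at 0 in both, pericyte markers at 118 and 0 CPM, endothelial at 54.8 and 30.3, erythroid at 180 and 30.3 against 7034 and 867 in other cells, and Schwann cell markers at 219 and 272, almost all of it S100b. All 9 CKO UMIs of the Schwann cell list lay in the same Prg4-led cell. The part of these cell types in the results below was not tested. Xist was at 0 in both sets of members, while Ddx3y or Eif2s3y from the Y chromosome was detected in both.

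The members were not uniform, and this bears on every genotype value. In 12 of 47 control members (25.5%, 13.9 to 40.4) Prg4 had the most UMIs of the 8 genes, as it had in 1 of 20 CKO members (5%, 0.127 to 24.9) and in 28 of 102 members at 8 weeks. The 12 control cells held 34.7% of all control member UMIs. Left out of the count, the remaining members were 1.69% of control cells (35 cells, 1.18 to 2.35) and 0.804% of CKO cells (19 cells, 0.485 to 1.25).

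The Prg4-led control cells differed from the other members in further genes, which were chosen after their values were seen and come from 12 cells of 1 library. Their Prg4 level, 45067 CPM, was fixed by the choice. Htra4 was at 2575 CPM in 11 of 12 cells, Fn1 at 11273 CPM and Rgcc, a cell cycle regulator induced by complement, at 5354 CPM. The fibroblast progenitor list summed to 16220 CPM there against 56902 CPM in the other 35 control members. The synovial lining list summed to 3366 CPM against 300 CPM, and the periosteum list to 1062 against 3716 CPM. Cd34 had 1 UMI in the 12 cells, and Pi16, Myoc and Thy1 had none. In the other 35 members, Dcn was at 24825 CPM, Igfbp6 at 4159, Ly6a at 2697, Clec3b at 2649, Mfap5 at 1582 and Cd34 at 743 CPM. At 8 weeks Htra4 was at 1871 CPM in the Prg4-led members, detected in 11 of 28, against 155 CPM in the other members, and Cd34 was at 38.2 CPM in 1 of the 28.

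The single Prg4-led CKO cell was of another kind. Its 3418 UMIs included 213 of Clu (clusterin), 169 of Cytl1 (a cytokine-like protein of cartilage), 115 of Prg4, 27 of Cilp, 15 of Chad, 12 of the cartilage collagen Col2a1, 11 of Comp and 6 each of Acan and Sox9, with Htra4 at 1 and no UMI of Ly6a, Cd34, Igfbp6 or Clec3b. It was 10.3% of all CKO member UMIs. The 28 Prg4-led cells at 8 weeks also held Clu at 13883 CPM, Cilp at 4869, Comp at 3514 and Acan at 382 CPM (9 cells), whereas the 12 control cells had 1 UMI each of Clu and Comp and none of Cilp or Acan.

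Zmpste24 itself was compared first between genotypes. Cre removes exon 6, and the UMIs come from the 3′ end of the transcript, outside the deleted part. The level therefore does not read the deleted exon itself, although it was lower in CKO. Over all cells it was 19.4 CPM in control (70 UMIs, 15.1 to 24.5) and 3.14 CPM in CKO (11 UMIs, 1.57 to 5.62). Members held 4 UMIs in control and 0 in CKO, too few for a comparison at this depth, where 3 UMIs in CKO members amount to 90.8 CPM.

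On summed counts, 61 of 1284 genes with at least 20 UMIs over both sets of members differed between genotypes by 2-fold or more with intervals that did not overlap: 29 were higher in CKO members (2.26%) and 32 lower (2.49%). With 1 library a genotype no test is possible, and cells are not replicates. Only 3 of the 61 passed 2-fold in the same direction in the other cells of the same libraries. For 10 of the 29 higher genes and 1 of the 32 lower genes a single cell held over 50% of the UMIs in the higher library. Rule genes among the 61 (Myoc and Cilp higher, Prg4 lower) were also used to choose the members.

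Many of these genes had a large part of their UMIs in the 13 Prg4-led cells. Among the largest ratios toward CKO, Cytl1 (0 UMIs in control, 170 in CKO, at least 219-fold higher than 3 UMIs in control would give), Clu (86.2 against 6776 CPM), 1500015O10Rik (149 against 2965 CPM) and Scrg1 (15.7 against 696 CPM) were carried by the single CKO cell, and 1500015O10Rik turned lower in CKO once that cell was left out, at −0.51 on the log2 scale. Among those toward control, Htra4 (924 against 30.3 CPM), Rgcc (2021 against 151 CPM) and Fgl2 (501 against 30.3 CPM) lay mostly in the 12 control cells, and 15 of the 32 lower genes had over 50% of their control UMIs there.

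An alternative chosen after the data were seen therefore left the 13 cells out. Of 902 genes then tested, 12 were higher in CKO (1.33%) and 19 lower (2.11%), and 10 and 12 of these were shared with the full comparison. Of the other genes of the full comparison, 14 higher and 10 lower were tested again without passing, and 5 and 10 had too few UMIs to be tested. Of the 14, 6 were still past 2-fold (Bcas2, Cald1, Clu, Jpt1, Ltbp4 and Marcks), as were 7 of the 10 (Cope, Gstp1, Hexa, Prrx1, Rgcc, Rpl36al and Sdc2), with intervals that overlapped on the fewer UMIs, while 1500015O10Rik and Prelp lay on the other side of 1. Fn1 was no longer called. Neither was Prg4, but its level defined the cells left out, so that loss was fixed by the choice. The rule gene Tppp3 was called lower in CKO only without those cells (2110 and 979 CPM).

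The 10 genes higher in CKO with and without the Prg4-led cells included chemokines and matrix proteins. Without those cells, Ccl11 (eotaxin, an eosinophil chemokine) was at 83.9 CPM in control and 979 in CKO members, 11.7-fold (5.00 to 31.5). Mgp, the matrix Gla protein that limits calcification, was at 695 and 3307 CPM, 4.76-fold (3.40 to 6.70). Myoc was at 527 and 2227 CPM, 4.22-fold (2.84 to 6.33), Cxcl14 at 132 and 540 CPM, and Thbs4 (thrombospondin 4, of tendon matrix) at 204 and 709 CPM. Spp1 (osteopontin, 192 and 1755 CPM) and Pi16 (204 and 675 CPM) were in this group too. A single cell held 84.6% of the CKO UMIs of Spp1, 80% of those of Pi16 and 56.2% of the 16 of Cxcl14. The other cells of the libraries held more Spp1 (11347 CPM in control and 10227 in CKO) and Cxcl14 (2669 and 3332 CPM) than the members did, and Mgp at 3323 and 2601 CPM, and the part of free RNA from them in these values was not tested. Cebpd, Smoc2 and Cilp completed the 10. Cebpd was also higher in CKO in the other cells, at 235 and 535 CPM.

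Genes lower in CKO in both comparisons were led in abundance by Gpx3, a secreted glutathione peroxidase. It was at 7995 CPM in control and 1653 in CKO members without the Prg4-led cells, 4.84-fold lower (3.62 to 6.60), and at 9633 against 1603 CPM with them, while the other cells of the libraries stood at 8966 and 9566 CPM. The antioxidant enzymes Sod3 (935 and 270 CPM) and Gpx1 (803 and 337 CPM) were lower as well. Ecm1, a glycoprotein of connective tissue, was at 1966 and 675 CPM, Aebp1, a collagen-binding protein, at 815 and 304 CPM, and Id3, an inhibitor of helix-loop-helix factors, at 1474 and 371 CPM. Sfrp2, a secreted Wnt modulator, was at 899 CPM in control and 1 UMI in CKO, 26.7-fold (4.64 to 1066), with 76% of the control UMIs in 1 cell. Fbln7 passed as well (611 and 202 CPM), with 60.8% of its 51 control UMIs in 1 cell. Lgals3 and Dusp1 were lower too, and Gm13305 and Gm2564, gene models with near-identical copies whose reads may be split, had no UMI in CKO members. Gm13305 was also lower in CKO in the other cells, at 21.0 and 2.3 CPM.

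**Figure D4:**
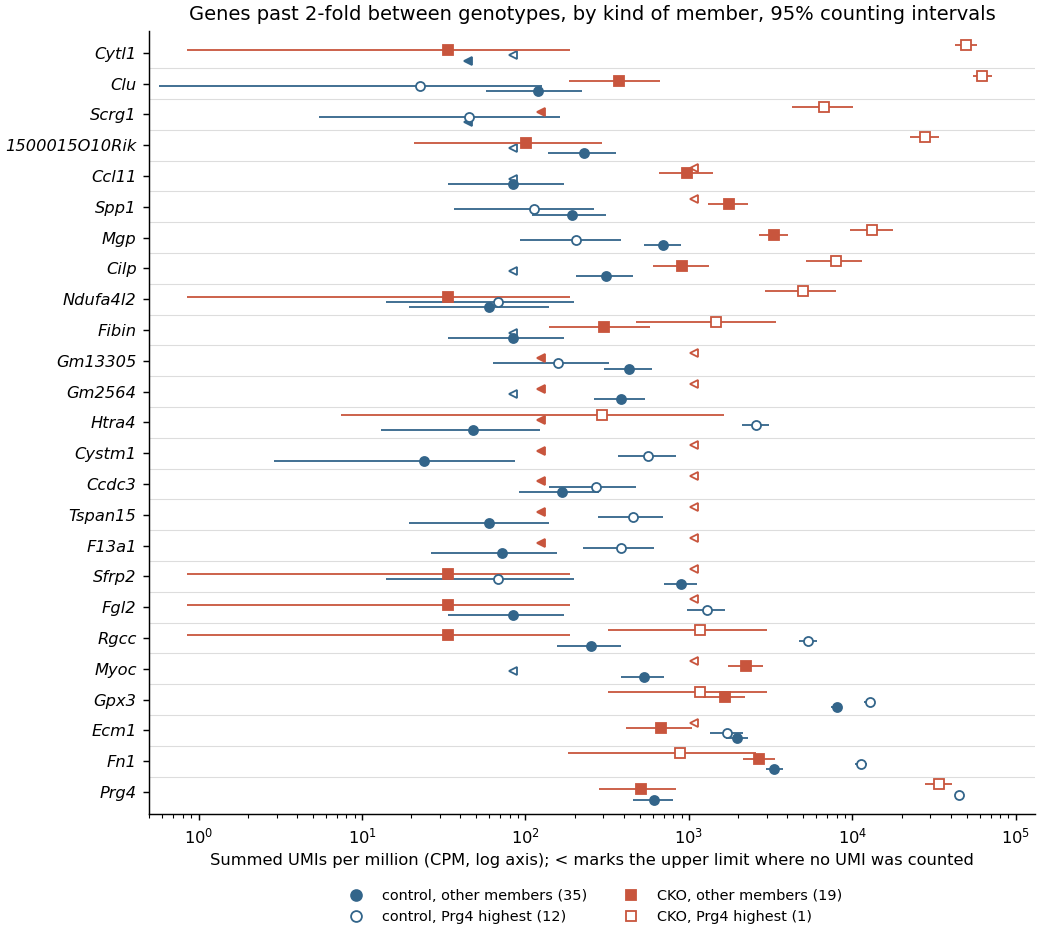
Summed UMIs scaled to CPM ( logarithmic axis, 95% counting intervals) of the genes with the largest ratios between genotypes and of Myoc, Gpx3, Ecm1, Fn1 and Prg4, for control and CKO members split by whether Prg4 had the most UMIs of the 8 rule genes; < marks the upper limit of a count of 0. Cytl1, Clu, Scrg1 and 1500015O10Rik are high in the single CKO cell alone and Htra4 and Rgcc in the 12 control cells, while Ccl11, Mgp, Myoc and Gpx3 also differ between the other 35 and 19 members.

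Pathway lists gave few calls. None of the 4 p53 target genes tested passed, Cdkn1a (p21) being at 486 CPM in control and 666 in CKO members. None of 4 genes of senescence-associated secretion, 3 of apoptosis or 8 collagens did either. Lmna, the only lamina gene with enough UMIs, was at 478 and 454 CPM. With the Prg4-led cells included, where 2.26% of all 1284 genes were higher and 2.49% lower, 1 of 18 elastic fibre and matrix glycoprotein genes was higher (Thbs4) and 4 were lower (Fn1, Fbln7, Ecm1, Efemp2). Without those cells Thbs4, Ecm1 and Fbln7 still passed, Fbln7 with most of its control UMIs in 1 cell, while Fn1 did not and Efemp2 had too few UMIs. Comp, a cartilage and tendon matrix protein, was called lower only without them (1235 and 337 CPM). Of 7 small proteoglycans Prelp was higher (384 and 817 CPM), but without the Prg4-led cells it stood at 515 and 506 CPM. Of 4 skeletal transcription factors, Prrx1 (251 CPM in control, 1 UMI in CKO) and Ebf1 (1292 and 605 CPM) were lower, and neither passed without those cells (Prrx1 at 288 and 33.7 CPM, Ebf1 at 1199 and 675 CPM). With the Prg4-led cells included, the median log2 ratio was 0.43 for the p53 targets and 0.35 for the collagens, beside −0.13 over all 1284 genes. It was 0.42 for the fibroblast progenitor list and −1.04 for the skeletal transcription factors. Without those cells the p53 targets summed to 1379 CPM in control and 1653 in CKO members, and the collagens to 7815 and 8368 CPM. Of 12 immediate early and heat shock genes Dusp1 was lower, and none of 2 mechanosensing, 3 interferon and 6 sorting surface genes passed. Of 8 Wnt, BMP and IGF genes Sfrp2 was lower. Without the Prg4-led cells Sfrp4 of that list was also called lower (2613 and 1113 CPM), with 81.8% of its CKO UMIs in 1 cell. Interferon and antigen presentation genes were low in members of both genotypes, at 2921 and 3176 CPM against 16329 and 16394 CPM in the other cells.

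The same genes were also read in sorted periosteal cells. Bulk RNA-seq was made at 20 weeks from td-Tomato+ periosteal cells sorted on Sca1 (pSSC) and growth plate cells sorted on CD73 (gpSSC), with 3 libraries a group. Control and CKO follow the sample titles, since the genotype field reads Z24fl/fl for control samples too. Ly6a and Nt5e encode the sorted proteins and are no finding. Replicates 2 and 3 of each group differed by no more than sampling noise over genes of 5 to 99 counts and were summed, which left 2 samples a group. In bulk cells, more cells of a type and more RNA per cell cannot be told apart.

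Of 13173 genes none passed an adjusted p of 0.05 between pSSC and gpSSC in control with edgeR's quasi-likelihood test (0%), although 815 had an unadjusted p under 0.05 and DESeq2 called 163 higher and 72 lower. The replicate numbers paired the samples, and with the replicate number as a block edgeR called 312 genes higher (2.37%) and 164 lower (1.24%) in pSSC. In that blocked fit 6 of the 8 rule genes were higher in pSSC and none lower, and their median log2 difference was 1.84 beside −0.04 over all genes. Of the leading genes other than Ly6a, whose protein was sorted on, 18 were tested, of which 14 were higher in pSSC and 0 lower.

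Igfbp6 showed the contrast in every library. It was at 10013, 4913 and 5003 CPM in control pSSC and at 2052, 1537 and 1424 CPM in control gpSSC, a log2 difference of 2.17 ± 0.50 (SE; adjusted p = 0.354 by edgeR, 9.36e-09 with the block). Clec3b was at 295, 230 and 235 CPM in pSSC against 87.9, 68.2 and 62.6 CPM in gpSSC (log2 1.84, adjusted p = 0.00125 with the block in edgeR). Myoc (log2 2.43), Mfap5 (2.07), Tppp3 (1.85) and Dpt (1.64) were the other rule genes called with the block, and for all 6 the pSSC and gpSSC libraries did not overlap.

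Prg4 and Cilp behaved otherwise. Prg4 was at 2082, 8906 and 8967 CPM in control pSSC and at 1211, 16892 and 18827 CPM in control gpSSC, ranges that overlapped (log2 −0.82 without the block, adjusted p = 1, and −0.06 with it, adjusted p = 0.951, in edgeR). Without replicate 1 the log2 difference was −1.12 (adjusted p = 2.28e-11), in a fit where replicates 2 and 3, which differ little, stood as separate samples. Cilp was at 956, 586 and 547 CPM in pSSC and 453, 1168 and 1113 CPM in gpSSC, and without replicate 1 its log2 difference was −1.13. Replicate 1 stood apart from the other libraries in each group. Of the marker lists, 7 of 10 fibroblast progenitor genes other than Ly6a were higher in pSSC with the block and 0 lower, while 9 of 9 chondrocyte genes and 6 of 7 osteoblast genes were lower. The periosteum list was mixed, with 4 of 10 higher (Aspn, Ogn, Col14a1, Prrx1) and 1 lower (Col12a1), and of 5 tenocyte genes 0 were higher and 1 (Fmod) was lower.

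**Figure D5:**
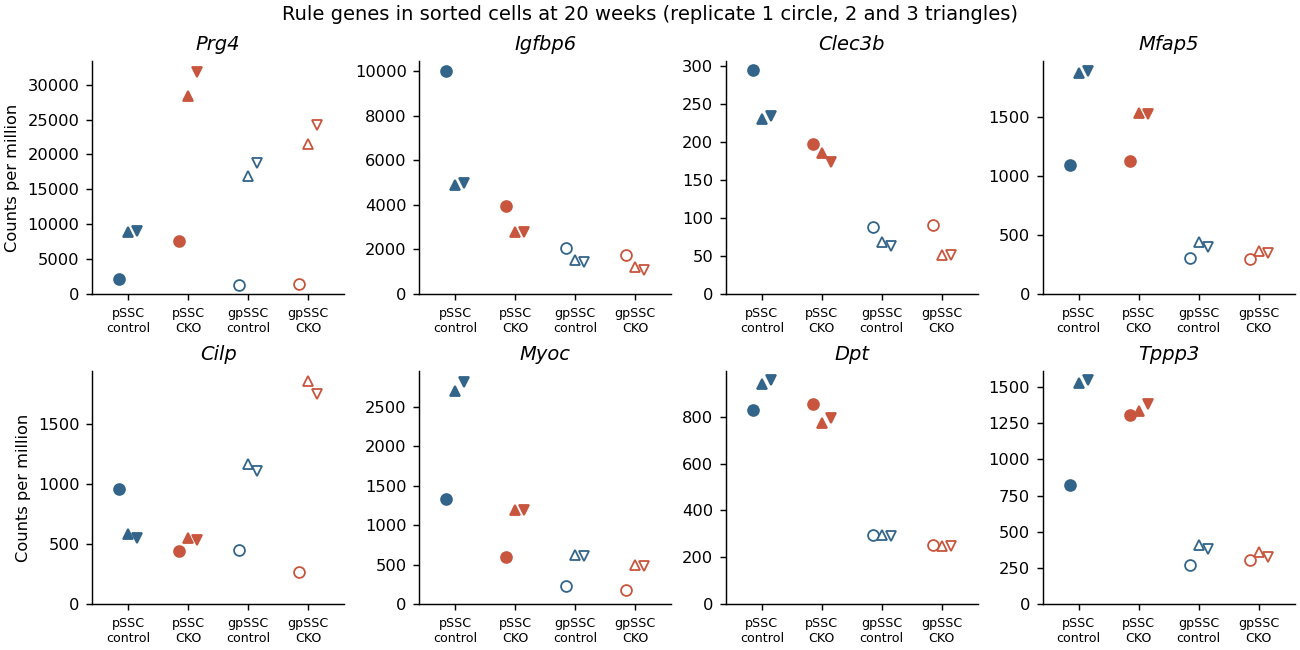
CPM of the 8 rule genes in each RNA-seq library of pSSC (filled) and gpSSC (open) at 20 weeks, control in blue and CKO in red; circles are replicate 1 and triangles replicates 2 and 3, which were summed to 1 sample. Igfbp6, Clec3b, Mfap5, Myoc, Dpt and Tppp3 are higher in every control pSSC library than in any control gpSSC library, and Prg4 and Cilp overlap.

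Between CKO and control pSSC, edgeR called no gene (0% in either direction, 277 with an unadjusted p under 0.05), and DESeq2 called none either. With the block, 5 genes were higher in CKO (0.038%) and 8 lower (0.0607%). Prg4 was among the 5. It was at 2082, 8906 and 8967 CPM in control pSSC and at 7580, 28361 and 31847 CPM in CKO pSSC, higher within each replicate number (blocked log2 1.67, adjusted p = 0.0118 in edgeR). Igfbp6 (10013, 4913 and 5003 CPM in control, 3960, 2767 and 2759 in CKO, blocked log2 −1.25, adjusted p = 0.00137) and Myoc (1328, 2704 and 2820 against 597, 1196 and 1190 CPM, blocked log2 −1.33, adjusted p = 0.0113) were lower, as were Dcn (−0.89) and Gsn (−0.96) among the leading genes.

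Rgcc, at 907, 904 and 820 CPM in control and 2696, 2456 and 2414 in CKO pSSC, was higher with the block (log2 1.40, adjusted p = 0.00128 in edgeR).

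Summed over all members, the single cells at 16 weeks had the opposite order for these genes. Myoc was at 345 CPM in control and 1997 in CKO members, Igfbp6 at 3054 and 3933, Gsn at 17409 and 30524, and Dcn at 18780 and 23173, of which only Myoc passed 2-fold. Without the Prg4-led cells Igfbp6 stood at 4159 and 4386 CPM with overlapping counting intervals, and Dcn was lower in CKO, at 24825 and 22269 CPM. Prg4 was at 16023 and 3933 CPM with the Prg4-led cells and at 611 and 506 CPM without them, and Rgcc at 2021 and 151 CPM with them and at 252 CPM and 1 UMI without. Neither was called once those cells were left out. For Prg4 the choice of cells fixed this, as they held 1995 of its 2046 control and 115 of its 130 CKO UMIs.

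Of the 29 genes called higher in CKO members, 26 were tested in pSSC. With the block 5 of them had a log2 difference above 0 and 21 below, with a median of −0.25 beside −0.01 over all genes, and Myoc, which was lower, was the only one called. Of the 32 called lower in CKO members, 25 were tested, 14 above 0 and 11 below with a median of 0.21, and Prg4 and Rgcc were called, both higher. Ccl11 (blocked log2 −0.19), Mgp (−0.38), Gpx3 (−0.61), Ecm1 (−0.28), Thbs4 (0.19) and Cxcl14 (0.89) were not called. Age, sort and tissue differ between the assays, and the part of each in the difference was not tested. Zmpste24 was at 0.75, 16.8 and 16.9 CPM in control and 0, 8.58 and 7.71 CPM in CKO pSSC. Pathway lists were read in the same blocked fit. Of 17 p53 targets, 15 lay above 0 and 2 below, with a median log2 of 0.72, and 0 were called. Of 16 genes of senescence-associated secretion, 11 lay above 0 (median 0.29), and only Timp1 was called, higher in CKO. Apoptosis genes and collagens each had a median of 0.06, with 0 called.

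Open chromatin at the promoters was read from ATAC-seq peaks of the same sorted populations, called separately in 12 libraries. The 250 bases before and 50 after each RefSeq start (GRCm38.p6) overlapped a peak for 43.2% to 48.2% of 27025 genes, depending on the library, and for 39.3% in all 12. Only Cilp, Dpt, Igfbp6 and Myoc of the rule genes were in the promoter table. The upstream stretches of Cilp, which had a peak in pSSC only, and of Dpt, which had a peak almost throughout, are shown with the TATATAA motif in capitals. Motifs were searched on both strands, and TATATAA occurred in the promoters of 3.6% of all genes. Of these 4 rule genes, Cilp and Myoc held it. The other motifs searched were TATAAA (14.3% of genes) and CCAAT (37.5%), each held by Igfbp6 and Myoc, and TGACTCA (5.16%) and GGGCGG (35.4%), held by 0 of the 4. TATATAA was singled out with these counts known, and enrichment was not tested.

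Cilp: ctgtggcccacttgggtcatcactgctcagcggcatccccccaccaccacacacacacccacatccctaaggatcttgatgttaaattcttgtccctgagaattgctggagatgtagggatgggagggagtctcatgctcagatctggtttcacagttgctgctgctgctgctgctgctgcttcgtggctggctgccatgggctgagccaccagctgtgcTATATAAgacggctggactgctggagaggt
Dpt: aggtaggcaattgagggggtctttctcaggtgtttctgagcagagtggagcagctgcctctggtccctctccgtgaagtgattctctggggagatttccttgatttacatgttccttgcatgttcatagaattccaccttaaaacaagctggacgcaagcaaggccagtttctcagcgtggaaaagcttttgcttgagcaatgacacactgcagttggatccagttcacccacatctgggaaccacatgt

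The Cilp stretch (chr9:65264930-65265179, plus strand, ending at the base before the start) held TATATAA 30 bases upstream of the start, and the Dpt stretch (chr1:164796413-164796662, plus strand) held no match. A peak covered 100% of the Cilp stretch in each of the 6 pSSC libraries, with −log10 q of 6.82, 4.75 and 17.9 in control and 14.7, 11 and 25 in CKO, and no gpSSC library had one. Its RNA was higher in pSSC than in gpSSC in replicate 1 and lower in replicates 2 and 3, and the difference was not called (blocked log2 0.31, adjusted p = 0.789 in edgeR). Dpt had a peak in all 6 pSSC libraries and in 5 of 6 gpSSC libraries, Igfbp6 in 1 pSSC control library alone, and Myoc in none of the 12. The Myoc stretch also held TATATAA, 28 bases upstream of the start.

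Of 14 leading genes in the promoter table, 7 had a peak in all 12 libraries, among them Gsn, Cd34 and Fbln2. Aspn had one in 5 of 6 pSSC and 0 of 6 gpSSC libraries, Tnxb in 3 and 0, and Col3a1 in 6 and 2, while S100a4 had one in 1 and 6 and Ltbp4 in 0 and 3. Library depth ran from 12250713 to 46756821 tags, and peak presence was not tested between groups.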

How the data were processed

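Single-cell matrices held UMI counts per gene and barcode as deposited by the authors, from droplet 3′ libraries aligned to mm10. Counts were summed over members and over other cells and scaled to CPM of all UMIs in those cells, with exact Poisson intervals. No doublet caller was run. The members, marker lists and pathway lists were chosen with earlier results of these data known. Named genes were the 8 rule genes, the 20 leading genes, the 10 largest ratios each way between genotypes, the most abundant or called genes of each list, and Zmpste24, Ly6a, Nt5e, Dcn, Col3a1, Xist and Ddx3y. Genes of the Prg4-led cells, the lowest genes and the genes described without those cells were chosen after their values were seen.

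Bulk RNA-seq files held counts per gene, deposited by the authors after alignment and counting (STAR and HTSeq are named in the submitters' processing notes), with 1333260 to 5315709 counts a library. edgeR 4.0.16 (TMM, filterByExpr, quasi-likelihood test, Benjamini-Hochberg adjustment, all 4 groups in 1 fit) was the test and DESeq2 1.42.0 an alternative. Nothing in the labels says the libraries came from separate animals, so p-values measure the spread between these libraries, which may be technical. Scaled to its degrees of freedom, chi-square for genes with 5 to 99 counts was 0.82 to 0.98 between replicates 2 and 3 and 10.1 to 13.1 for pairs with replicate 1. Between replicates 2 and 3 it was 1.59 to 1.92 for genes with 20 or more counts, so that abundant genes differed by more than sampling noise. Deviations from group means of same-numbered libraries correlated at 0.553 to 0.599 across genes, and the numbers, taken from the sample titles, were used as a block. Libraries of different numbers were not correlated, and replicate 1 stood apart in every group. The correlations therefore cannot show that the numbers pair samples. The block only separates replicate 1 from the sum of replicates 2 and 3. ATAC-seq files held MACS2 peaks per library with −log10 q-values by the authors, signal and fold columns not being used here. An overlap of 1 base with a promoter counted. The scripts were tested on simulated data.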

Additional observations from a re-analysis of the deposited data

How the results depend on the processing

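Raising the rule from 0.5% to 1% and 2% gave 1.55% and 0.725% of control cells and 0.55% and 0.169% of CKO cells. Genes at least 4-fold higher in members numbered 38 with a pseudocount of 50 CPM and 79 when detection in 25% of members was required, and genes lower numbered 61 with the larger pseudocount. Between genotypes, 14 genes were lower in CKO at the 2% rule, 12 were higher with at least 50 UMIs, and 12 higher and 19 lower without the members led by Prg4, an alternative chosen after seeing the data. 1500015O10Rik was lower in CKO, at −0.74, −1.10 and −0.51 (log2), without the 5% of members with most UMIs, without all Prg4-led members and without the CKO one. Across 255 values of single named genes between genotypes, 237 kept their side, 9 lost the call, 6 gained it and 3 reversed, these 3 being 1500015O10Rik.

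For pSSC against gpSSC, genes higher and lower numbered 50 and 39 without a filter, 300 and 259 with each library as its own sample, 312 and 164 with the replicate block, 163 and 72 with DESeq2, and 0 to 4663 and 0 to 4506 when 1 replicate was left out. For CKO against control pSSC they numbered 1 and 4 without a filter, 5 and 8 with the replicate block, and 0 to 4076 and 0 to 4280 when 1 replicate was left out. The highest counts came without replicate 1, where replicates 2 and 3, alike within sampling noise over genes of 5 to 99 counts, stood as separate samples, so that the fit had little spread. There Cilp turned to −1.13 (log2, pSSC against gpSSC) from 0.00, and was −0.07 without replicate 2, and Tppp3 turned to −0.23 (CKO against control) from 0.06, and was 0.11 without replicate 2. The edgeR fit to which the block was added had called no gene, so there the block could only add calls.

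Each genotype is 1 pooled library of single cells, 20 CKO members hold 33056 UMIs, and a gene under about 90.8 CPM cannot be told from 0 there. Whether the mice, the dissection or the cell yield differed between the libraries cannot be told apart from genotype.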

Other observations

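Immediate early genes, which dissociation can induce, were present in members and other cells. Fos was at 1230 CPM in control members and 2299 in CKO members, and at 553 and 1230 CPM in the other cells of the same libraries. Jun was at 979 and 1422 CPM in members and 560 and 967 CPM in other cells. Without the Prg4-led cells Fos passed 2-fold toward CKO (1103 and 2294 CPM), the same direction as in the other cells.

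Lmna, which encodes lamin A and C, was at 478 CPM in control members (365 to 614) and 454 in CKO members (254 to 748), against 113 and 105 CPM in the other cells. Cdkn1a stood at 486 and 666 CPM in members and at 99.7 and 100 CPM in other cells. Klf4, a zinc finger transcription factor, was at 290 and 393 CPM against 42.2 and 32.0 CPM. These differences between members and other cells come from the cells the rule chose and are given as values.

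Cell cycle genes were nearly absent. The 17 genes of the list held 18 UMIs in control members and 3 in CKO members, with Mki67 and Top2a at 0 in both.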
